A study of Mus musculus with 8 samples.

Results

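The genes of the nuclear pore complex were examined in mouse NIH3T3 cells, an established fibroblast line, before, during and after arsenic stress. A gene was counted as a nuclear pore gene when its symbol began with Nup followed by a digit or the letter l, or when it was Seh1l, Sec13, Rae1, Pom121, Tpr, Aaas, Ranbp2 or Ndc1. The rule found 29 genes among the 10690 genes listed in at least 1 table, and 27 of them were among the 9875 genes listed in all 3 tables. Nup54 was listed only in the table of RC4 and Nupl2 only in those of AS and RC8, so 28 of the 29 genes had a value in each comparison. Proliferating cells were grown in DMEM with calf serum and left non-treated (NT), kept in 250 μM sodium arsenite for 1 h (AS), or given that treatment and then regular medium, for 4 h in the condition RC4 and for 8 h in the condition RC8. Total RNA was taken with TRIzol, and each of the 4 conditions had 1 library of QuantSeq FWD, a 3′ end method in which a read comes from near the poly(A) tail of a transcript. Since every condition had a single library, no replicate and no test stood behind a difference, and every interval given for a gene or a site covers the counting of reads only, not the variation between cultures.

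The nuclear pore complex is the gate of the nuclear envelope through which proteins and RNAs pass between nucleus and cytoplasm. Its scaffold consists of an outer ring on each face, built from Y-shaped complexes, and of an inner ring that lines the pore membrane. Nucleoporins with phenylalanine-glycine (FG) repeats fill the central channel and bind transport receptors, filaments reach into the cytoplasm, a basket faces the nucleoplasm, and a few membrane proteins anchor the complex. Scaffold nucleoporins are known as very long-lived proteins in cells that do not divide.

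The libraries held 22.4 M to 23.0 M reads on genes. The list of arsenite-responsive genes, which serves as a check of the labels, was above NT in each treated library for all 4 of its listed members, with a median log2 difference of 1.48 under AS, 4.48 at RC4 and 1.48 at RC8. All 8 fibroblast markers examined were listed, and their summed level went from 14476 RPM in NT to 8724 RPM in RC8, where RPM are the reads of a gene scaled to 1 M reads on genes. Most of that sum was S100a4, with 10281 RPM in NT and 5715 in RC8. Fn1 had 684 and 714 RPM, and the other markers had fewer RPM in RC8 than in NT. Of 7 markers of other cell types, Ptprc, Epcam, Cdh1, Pecam1, Cdh5 and Alb were not listed in any table, and Tubb3 was listed at 2.81 RPM in NT and 15.8 in RC8. The part of these shifts in the values of the pore genes was not tested. In such bulk libraries, fewer cells of a type and less RNA per cell cannot be told apart.

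In NT cells, the median nuclear pore gene had 64.9 RPM, compared with 32.6 to 34.7 for the median of all genes. Because a transcript gives reads at its end only, these levels are per transcript end and were not divided by length. Nup107 and Sec13 of the outer ring had 206 and 191 RPM, the basket protein Tpr had 180 and the membrane anchor Ndc1 had 170. At the other end, Nup54 of the central channel had 2.66 and Nupl2, a protein of the cytoplasmic side that binds the mRNA export factor Gle1, had 4.96. Nup160 and Nup98 were also low, at 15.1 and 15.4. Nup210l, a paralog of the membrane nucleoporin Nup210, was listed at 1214 RPM, above every other member, and it is set apart here because its reads lie beside a near-identical copy of another gene (described with the PASs). Without Nup210l the median was 64.8. The NT level of a member differed by at most 2.24% between the tables, in Nup214.

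Changes from NT were expressed as log2 ratios relative to the median gene, that is, after the median ratio of the 9875 shared genes was set to 0. On the scale of RPM the median gene itself stood at −0.04 under AS, −0.31 at RC4 and 0.00 at RC8, so a gene that kept pace with the median gene had fewer RPM in RC4. A gene was called higher or lower when it was at least 1.5-fold away from NT on this relative scale. The 3 comparisons share the NT library, so they are described side by side and not correlated with each other.

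After 1 h of arsenite, Ranbp2 and Tpr were the members called lower, and no member was called higher. That is 2 of 28 members lower, compared with 10.2% of all genes, and 0 of 28 higher, compared with 2.08%. Ranbp2, the large filament protein of the cytoplasmic face with SUMO ligase activity, had 145 RPM in NT, 80.1 under AS, 161 at RC4 and 160 at RC8. It was lower in AS alone, by 1.76-fold (log2 −0.81, 95% counting interval −0.90 to −0.73), and stood above NT in both recovery libraries, with log2 values of 0.46 and 0.14. Tpr, the coiled-coil protein that forms the filaments of the basket, had 180 RPM in NT, 113 under AS, 141 at RC4 and 168 at RC8. Its difference of 1.54-fold in AS (log2 −0.62, −0.69 to −0.55) lay at the line of the call, since the interval crossed 1.5-fold. Nup153, the basket protein that binds importins and anchors Tpr, came next, with 65.4 RPM in NT, 48.6 under AS, 59.3 at RC4 and 63.6 at RC8 and a log2 value of −0.39 in AS. The basket thus had a median of −0.39 over its 3 genes in AS, while Nup50, its importin cofactor, was at 0.05.

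At the upper end in AS were Nup210l, Nup62 and Nup35, with log2 values of 0.27, 0.25 and 0.24. Nup62, the FG protein of the central channel trimer, had 112 RPM in NT, 129 under AS, 86.0 at RC4 and 135 at RC8. Nup35, an inner ring protein that binds the pore membrane, had 51.0, 58.6, 38.0 and 56.3 in the same order. None of these differences reached 1.5-fold. The median over the 28 members was −0.03 in AS (−0.06 without Nup210l), compared with 0.00 for all genes, whose quartiles were −0.25 and 0.16.

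The largest differences among the members were found after 4 h of recovery, led by genes of the outer ring. In RC4, 8 of 28 members were lower and 0 of 28 were higher, compared with 17.2% and 15.2% of all genes. Of the 8, Nup107, Nup85, Nup43 and Nup133 belong to the outer ring, Nup155 to the inner ring, Nup88 and Aaas to the cytoplasmic side, and Pom121 to the membrane anchors. The median over the members was −0.16 (−0.20 without Nup210l), compared with 0.01 for all genes, whose quartiles were −0.40 and 0.37.

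Nup107, a stem protein of the Y complex, had 206 RPM in NT, 188 under AS, 53.1 at RC4 and 102 at RC8. The library of RC4 was the lowest and that of RC8 lay between it and NT. The difference was 3.14-fold in RC4 (log2 −1.65, −1.74 to −1.56) and 2.02-fold in RC8 (log2 −1.01, −1.08 to −0.94). Nup85, which joins the short arm of the Y, had 127, 124, 38.5 and 75.5 RPM and showed the same order of libraries. It was 2.66-fold lower in RC4 (log2 −1.41, −1.52 to −1.30) and 1.68-fold lower in RC8 (log2 −0.75, −0.84 to −0.66).

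Nup43, a small propeller protein attached to the short arm, had 21.1 RPM in NT, 23.7 under AS, 8.12 at RC4 and 24 at RC8. Only the library of RC4 was low, by 2.1-fold (log2 −1.07, −1.32 to −0.83). Nup133, at the tip of the Y stem, had 36.8, 27.9, 15.6 and 35.6 RPM. It was 1.89-fold lower in RC4 (log2 −0.92, −1.10 to −0.74), below NT in AS (log2 −0.38) and back at the level of the median gene in RC8 (log2 −0.04, −0.18 to 0.10).

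Not all subunits of the outer ring moved in this way. Nup37, a further small propeller of the Y, lay just outside the call in RC4 at 1.47-fold lower (log2 −0.56, −0.71 to −0.41), with 45.7 RPM in NT, 49.2 under AS, 25.1 at RC4 and 43.7 at RC8. Nup160, the long-arm scaffold protein, was at 0.04 in RC4 (−0.18 to 0.27). Seh1l, which also serves the amino acid sensing complex GATOR2, was at 0.01 (−0.07 to 0.10). Sec13, which is shared with the COPII coat of the secretory pathway, had 191 RPM in NT, 206 under AS, 200 at RC4 and 184 at RC8, and its log2 value of 0.38 (0.32 to 0.44) was among the highest 3 members in RC4. The outer ring as a whole had 4 of 8 genes lower in RC4 and a median of −0.74. Its summed level was 753 RPM in NT, 443 in RC4 and 571 in RC8.

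The 4 further members called lower in RC4 were close to the line. Nup88, which holds Nup214 at the cytoplasmic face, had 64.9 RPM in NT, 63.7 under AS, 31.4 at RC4 and 61.2 at RC8, a difference of 1.67-fold in RC4 (log2 −0.74, −0.87 to −0.61). Aaas (ALADIN), the gene of triple A syndrome, had 21.8, 22.3, 10.9 and 18 RPM, and was 1.62-fold lower (log2 −0.70, −0.92 to −0.48).

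Nup155, the inner ring protein that contacts the membrane, had 64.7 RPM in NT, 54.2 under AS, 32.5 at RC4 and 69.1 at RC8, and was 1.61-fold lower in RC4 (log2 −0.69, −0.82 to −0.56). Pom121, a membrane anchor with FG repeats, had 97.1, 83.3, 50.4 and 135, and was 1.56-fold lower in RC4 (log2 −0.64, −0.74 to −0.54). For Aaas, Nup155 and Pom121 the interval crossed 1.5-fold. In all 4 of these genes, as in Nup43 and Nup133, the library of RC4 was the lowest of the 4.

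The members with the highest values in RC4 were Nup210l (log2 0.49), Ranbp2 (0.46) and Sec13 (0.38), none past 1.5-fold. Medians by role were −0.74 for the outer ring, −0.48 for the cytoplasmic side, −0.29 for the 2 membrane anchors, −0.12 for the inner ring, −0.04 for the basket and 0.03 for the central channel. Within the cytoplasmic side the values ran from −0.74 in Nup88 to 0.46 in Ranbp2. In the inner ring, Nup93 (−0.01) and Nup188 (0.00) stayed with the median gene, and Nup205, the large paralog of Nup188, was at −0.36.

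Each role also held members whose level was not called in any comparison. Nup93, the linker of the inner ring, had 105 RPM in NT, 97.9 under AS, 84.5 at RC4 and 103 at RC8, and its log2 values lay between −0.06 and −0.01. Nup188 had 50, 46.3, 40.4 and 66.0 RPM, and Nup205 had 42.0, 35.6, 26.4 and 32.1. These paralogs stood on opposite sides of the median gene in RC8, at 0.40 (0.29 to 0.51) and −0.39 (−0.53 to −0.25), and their difference was not tested. Nupl1 had 80.8, 63.0, 57.1 and 75.4 RPM, lower than NT in each treated library, with log2 values of −0.32, −0.20 and −0.10. Ndc1, a membrane anchor needed for pore assembly, had 170, 151, 143 and 169 RPM and was within 0.13 of the median gene in all 3 comparisons. Seh1l had 110, 99.9, 89.5 and 91.1 RPM, Nup50 had 106, 107, 67.1 and 100.2, and Nup160 had 15.1, 15.2, 12.6 and 15.1. Call numbers in RC4 depended on the scale. Relative to total reads, 12 members were at least 1.5-fold lower, with Nup37, Nup50, Nup205 and Nup214 added to the 8. On that scale the median gene itself stood at −0.31, and the share of all genes past the line is not given here.

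**Figure D1:**
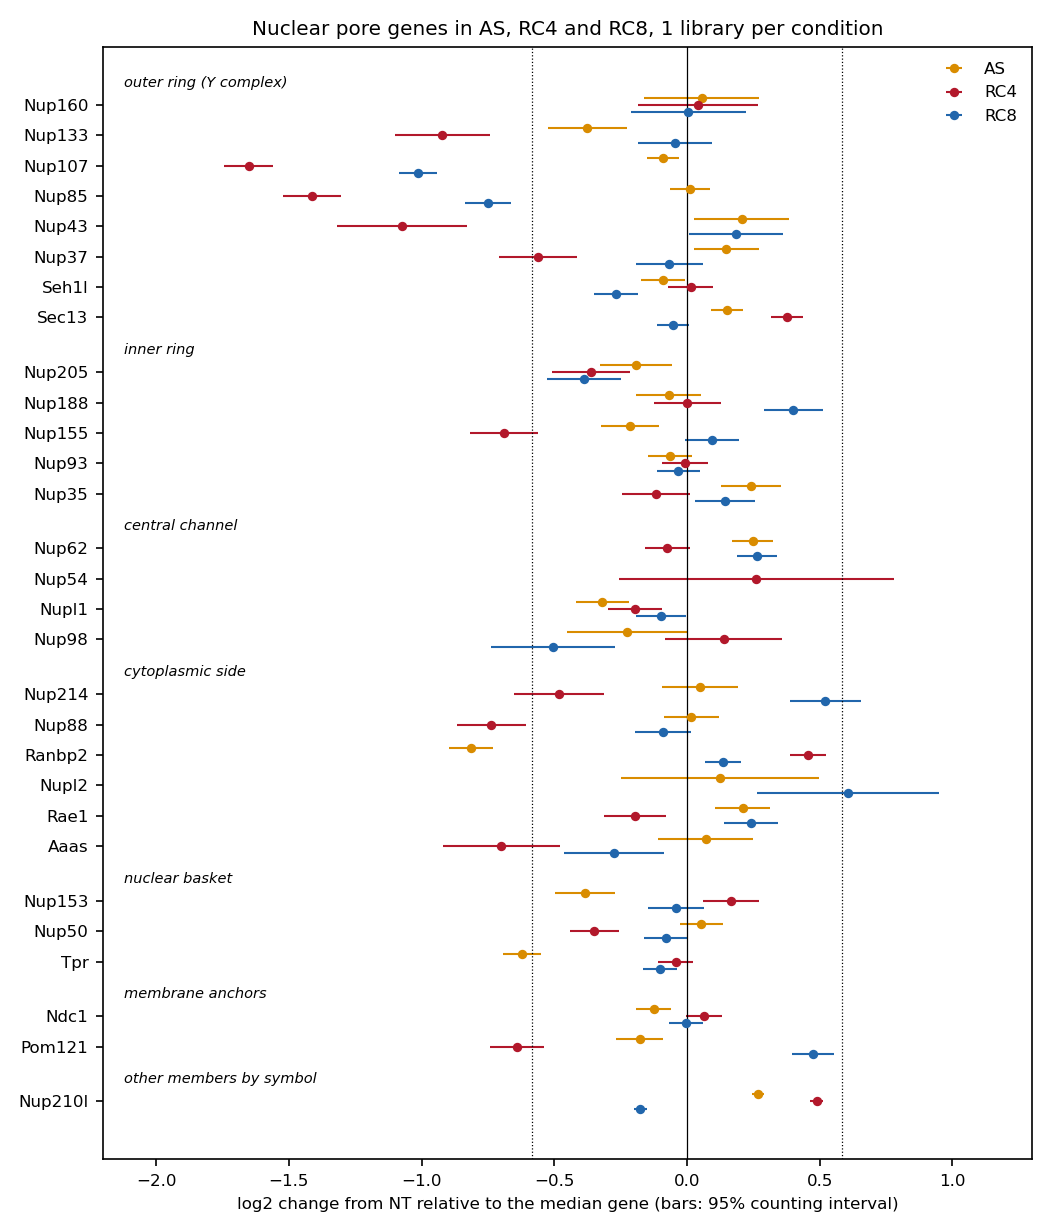
Log2 change from NT relative to the median gene for each nuclear pore gene, ordered by role, in AS (orange), RC4 (red) and RC8 (blue). Points are single libraries, bars are 95% counting intervals and dotted lines mark 1.5-fold. Among the RC4 points, those of Nup107, Nup85, Nup43 and Nup133 lie farthest to the left.

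After 8 h of recovery fewer members were called. In RC8, 2 of 28 members were lower, Nup107 and Nup85, compared with 12% of all genes, and 1 of 28 was higher, Nupl2, compared with 11.3%. The median was −0.04 with and without Nup210l, compared with 0.00 for all genes, whose quartiles were −0.31 and 0.32. Nupl2 had 112 reads in NT, 118 in AS and 174 in RC8, which is 4.96, 5.26 and 7.57 RPM. The difference of 1.52-fold in RC8 (log2 0.61, 0.27 to 0.95) had the widest interval of the called members, which crossed the line of the call. It was not a call when the first of the 2 count columns of the library was used alone.

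Just below the call in RC8 were Nup214 and Pom121 on the upper side and Nup98 on the lower side. Nup214, an FG protein of the cytoplasmic filaments, had 33.5 RPM in NT, 34.0 under AS, 19.3 at RC4 and 47.6 at RC8. It was at −0.48 in RC4 and 0.52 in RC8 (0.39 to 0.65), so the libraries of recovery were on both sides of NT. Pom121 followed the same order, with log2 values of −0.64 in RC4 and 0.47 in RC8. Nup98, an FG protein that carries Rae1 and takes part in mRNA export, had 15.4, 12.8, 13.7 and 10.9 RPM and was at −0.51 in RC8 (−0.74 to −0.27). Rae1 itself had 62.4, 70.0, 44.0 and 73.7 RPM, with log2 values of 0.21, −0.20 and 0.24, all within 1.5-fold.

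**Figure D2:**
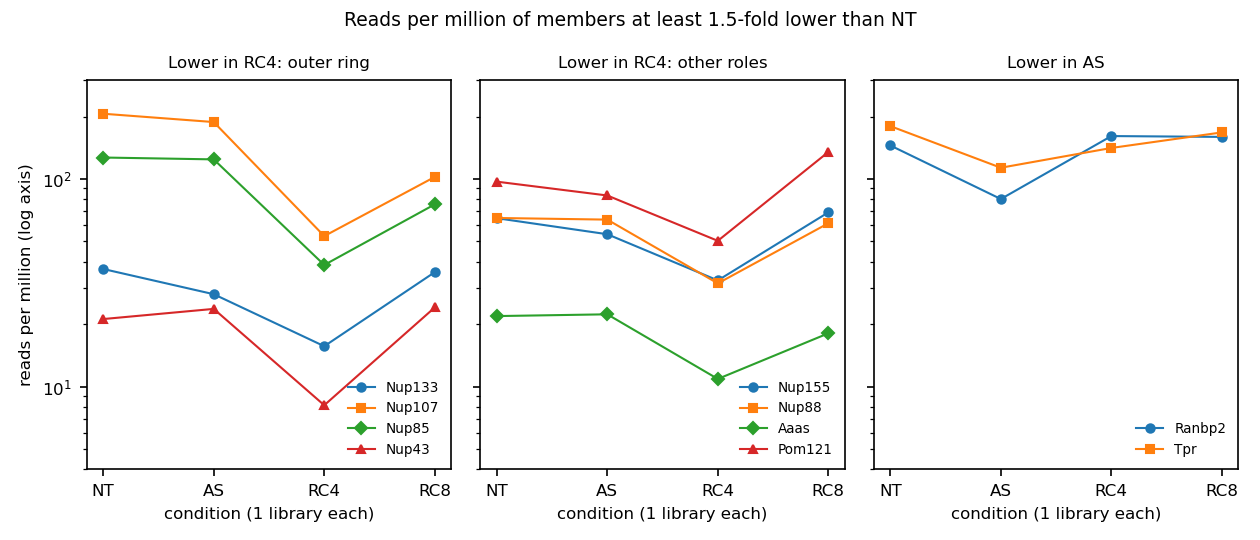
RPM on a log axis in NT, AS, RC4 and RC8 for the 10 members at least 1.5-fold lower than NT in AS or RC4. Each point is 1 library. Nup107 and Nup85 stay below NT in RC8, at 102 and 75.5 RPM, while Ranbp2 and Tpr are lowest in AS.

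The order of the members in AS ran with transcript length. Lengths were taken as the longest protein-coding transcript of GENCODE vM1, and Ndc1 was matched under its older name Tmem48. Ranbp2 (9.48 kb) and Tpr (7.45 kb), the 2 members called lower in AS, had the longest transcripts. Across 27 members, without Nup210l, Spearman's rho between length and the log2 change in AS was −0.75, and across 8725 genes it was −0.51. The members share 1 pair of libraries and the NT denominator, so this is a description across genes, which are not independent replicates. The 6 members above 6 kb had a median of −0.30 in AS and those up to 6 kb 0.02, compared with −0.53 and 0.02 for all genes. In RC4 and RC8 the members' rho was 0.21 and 0.07 (all genes −0.06 and −0.04). Nup107, Nup85 and Nup43, lowest in RC4, have transcripts of 3.10, 2.23 and 1.29 kb. In AS, all genes of 6000 to 8000 nt had a median of −0.43 (quartiles −0.76 and −0.14). Those of 8000 to 10000 nt had a median of −0.62 (quartiles −0.92 and −0.32). Tpr and Ranbp2, at −0.62 and −0.81, lay within the quartiles of their length. What part length has in the low values of Ranbp2 and Tpr was not tested.

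**Figure D3:**
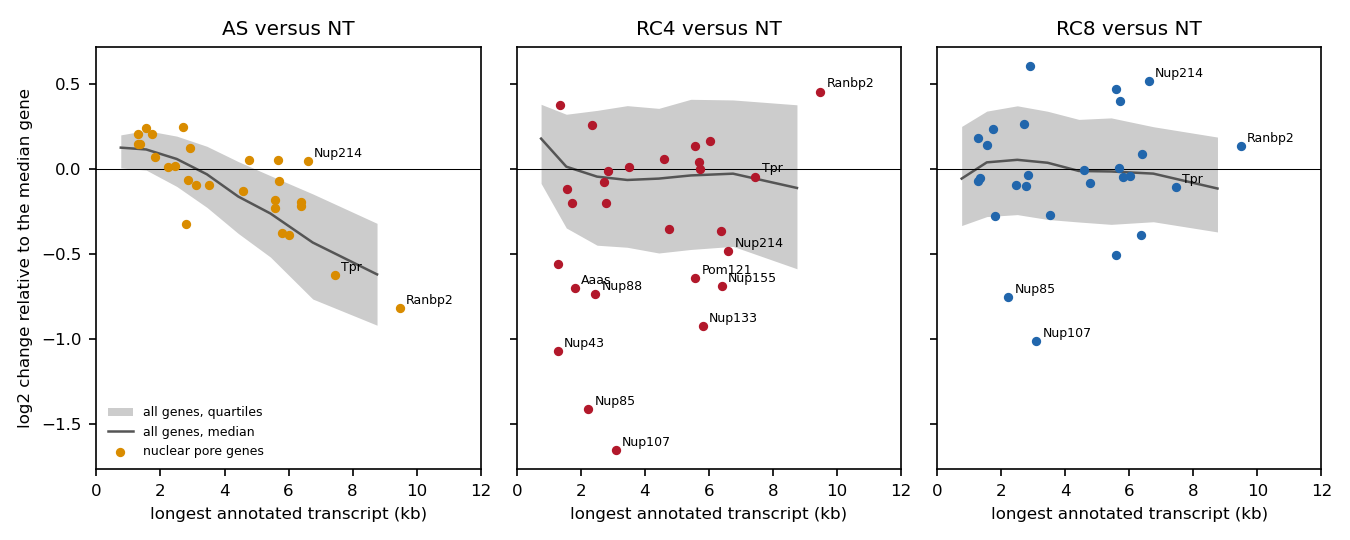
Log2 change from NT relative to the median gene against the length of the longest annotated transcript in kb, for nuclear pore genes without Nup210l (points) and for all genes in bins of length (line, median; grey band, quartiles). In AS the points and the line slope down from short to long transcripts, whereas in RC4 and RC8 the line is nearly flat.

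The site of cleavage and polyadenylation (PAS) of each transcript was also measured. MAAPER assigns the reads of a gene to PASs of a database, and the share of a gene's reads at each PAS is given here in percent with 95% Wilson intervals. A PAS in an intron ends a transcript before the last exon, and a choice among PASs of the 3′-most exon sets the length of the 3′UTR. Members with 1 listed PAS were 57.1% to 60.7% of the 28 members per table, compared with 47.0% to 49.4% of all genes. All of Nup107, Nup85, Nup43, Nup133, Nup88, Aaas and Pom121 had 1 PAS, so their counts are counts of that end. Of the 56 PASs of members, 34 (60.7%) had AATAAA or ATTAAA on the transcript strand within 30 nt upstream, compared with 47.0% of 21565 PASs of all genes. A further 8 had only a single-base variant (14.3%, compared with 13.7%), and 14 had none (25%, compared with 39.3%). The variants searched were NATAAA, where N is any base, and AATANA on the same terms, besides AGTAAA as well as the form ACTAAA. The search describes the letters of the window only.

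A PAS changed by at least 10 percentage points in 1 of 12 members with over 1 PAS in AS (15.2% of all such genes), 5 of 11 in RC4 (29%) and 2 of 12 in RC8 (26.9%). The gene in AS was Nup50. Those in RC4 were Nup50, Nupl1, Nup155, Nup160 and Seh1l, and those in RC8 were Nupl1 and Nup160. The call of Nup155 rests on a site listed for RC4 alone. The single sites of Nup107 (117187691 on chromosome 10, minus strand), Nup85 (115445220 on chromosome 11, plus strand) and Nup43 (7398676 on chromosome 10, plus strand), lowest in RC4 by level, and the sites of Nup50, Nupl1, Nup155, Nup160 and Nup35, which carry the PAS results, are given as the 30 nt before cleavage, 5′ to 3′ on the transcript strand, from the mm9 genome (NCBIM37). Capitals mark AATAAA or, where it was absent, ATTAAA or a single-base variant. The copy farthest upstream is the one marked, and further copies in the same window, as in Nup107 and the intron of Nupl1, are left in lower case.

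Nup107: gtattttttaAATAAAttatacaaaataaa
Nup85: tttaaagAATAAAttgttttgcaaatataa
Nup43: aaggaaacAATAAActgtttgttaatgtca
Nup50 proximal: cttctaggtaacttgaacttttgtgaggaa
Nup50 distal: aatctcagtgtgtgttagcttttgaatgag
Nupl1 intron: aagatgaacAATAAAttaaataaaataaaa
Nupl1 listed as last exon, site with the largest loss: ttttctttatatacattttcatatgttgaa
Nup155 intron: taatcAATAAAtaaaatcttaaaaaaaaaa
Nup160 intron: taaataAGTAAAgataagctttgtgtttaa
Nup35 intron, upstream: aagggaaaaaagaatgacataacttgattt
Nup35 intron, downstream: aaaaaaaaagaaacccttactccattttta

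Nup50, which assists the release of importin cargo, had a larger share of reads at its first PAS in all 3 treated libraries. It has 4 PASs in the last exon on chromosome 15, at 84770405, 84770989, 84772186 and 84773336 on the plus strand, and neither the first nor the last has a listed hexamer in the window shown. The proximal PAS took 26.7% of reads in NT (25% to 28.5%), 34.1% in AS, 48.0% in RC4 (45.5% to 50.5%) and 31.7% in RC8. The distal PAS took 38.6%, 27.6%, 25.5% and 29.0% in the same order, so every treated library was below NT at the distal site and above it at the proximal one. The change at the distal site in RC8, −9.60 percentage points, was just short of the call. REDu, the log2 ratio of the distal to the proximal site in the treated library over that in NT, was −0.84 ± 0.11 under AS, −1.44 ± 0.12 at RC4 and −0.66 ± 0.11 at RC8 (± counting error). In estimated reads, the proximal site went from 637 in NT to 738 in RC4 and the distal site from 921 to 392, while the gene as a whole was at a log2 value of −0.35. The 300 nt before the distal PAS are 97.7% identical to 1 other place in the genome, and what this does to the reads of that site was not tested.

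Nupl1 encodes the channel nucleoporin Nup58, the partner of Nup62 and Nup54, and used an intronic PAS more in recovery. Its intronic PAS at 60842812 on chromosome 14 (minus strand) lies 5899 nt before the most distal site and has AATAAA 21 nt upstream. It took 23.5% of reads in NT (21.6% to 25.5%), 25% in AS (22.8% to 27.3%), 43.4% at RC4 (40.7% to 46.1%) and 33.8% at RC8 (31.6% to 36.1%). The intervals of AS and NT overlapped, and both recovery libraries stood above them. The PAS at 60837025 took 38.3%, 38.2%, 19.7% and 22.7%, whereas the most distal PAS, 112 nt further on, took 30.9%, 24.6%, 30.2% and 35.8%. REDi is the same ratio between a PAS listed in the last exon and an upstream one. With the PAS at 60837025 it was −0.09 ± 0.13 under AS, −1.84 ± 0.14 at RC4 and −1.28 ± 0.13 at RC8. With the most distal PAS it was −0.42 ± 0.14, −0.92 ± 0.13 and −0.31 ± 0.12, so the recovery libraries were below 0 with either site and the sizes depended on it. Estimated reads at the intronic PAS numbered 429 in NT, 353 under AS, 568 at RC4 and 586 at RC8, and no other place in the genome matched the 300 nt before it at 95% identity over 100 nt. The sites at 60837025 and 60836913 lie past the end of the annotated transcript Nupl1-201, in an intron of the gene by GENCODE although they are listed as last exon, and both are listed for Mir719 as well.

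Nup155, Nup160 and Nup35 had larger intronic shares in RC4 than in NT, at sites beside repeated sequence. The authors name Nup155 among further examples of intronic polyadenylation under stress and show its read tracks. Which site these tracks cover was not checked here. Nup155 had an intronic PAS at 8095169 on chromosome 15, listed only in the table of RC4, with 1.04% of reads in NT (0.633% to 1.70%) and 11.2% in RC4 (9.13% to 13.7%), which is 15.2 and 83.2 estimated reads. Its REDi of −3.67 ± 0.41 rests on those 15.2 reads. Nup160 had one at 90551161 on chromosome 2, also listed only for RC4, with 14.3% in NT (11.0% to 18.4%) and 29.8% in RC4 (24.8% to 35.3%) and a REDi of −1.66 ± 0.31.

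Nup35 had 2 on the same chromosome. The one at 80479957 was listed only for RC4, at 4.34% in NT and 14.2% in RC4, 9.86 percentage points and so just short of the call, with a REDi of −1.88 ± 0.25. The one at 80492372 was listed in all 3 tables, at 16.5% in NT in the tables of AS and RC8 and 12.1% in that of RC4, and at 13.6% under AS, 13.3% at RC4 and 10.6% at RC8. The 300 nt before the sites of Nup155 and Nup160 matched 1229 and 4276 other places in the genome, and those before the sites of Nup35 matched 113 and 1753. In addition, the 20 nt after the PAS at 80492372 hold a run of 19 A. Both sites in the last exon of Nup35 are at least 98.7% identical to 1 other place, so the level of Nup35 is uncertain to that extent. In the authors' method, PASs were added in order of read support as long as a likelihood ratio test showed a better fit. The likelihood they describe covers the reads of both conditions of a comparison, and a limit on the share was also set. A site could thus enter the table of RC4 through its reads in RC4. How far the larger shares at sites listed for RC4 alone follow from that selection was not tested. These sites have no value in AS or RC8 here. Listing differed between tables although NT is the same in all 3. The intronic site of Nup160 held 14.3% of NT reads in the table of RC4 and is not in the other tables, whereas the most distal site of Nup160 at 90579996, with 15.3% of NT reads in the tables of AS and RC8, is not in that of RC4. The part of repeats in these shares was not tested.

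**Figure D4:**
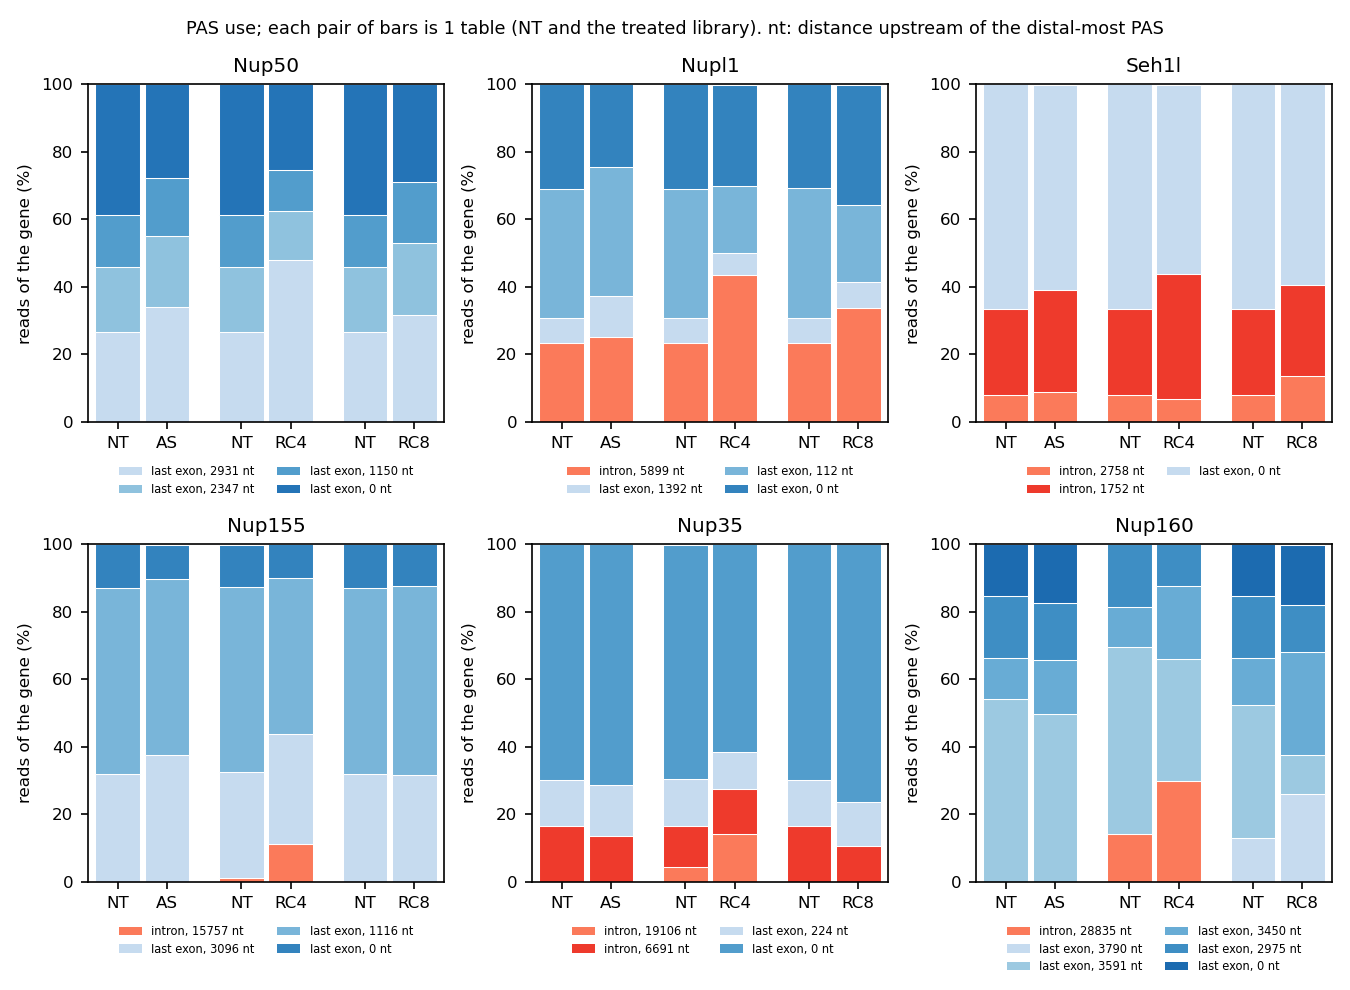
Share of a gene's reads at each PAS in percent, for 6 nuclear pore genes, as pairs of bars for NT and the treated library of the same table. Red bars are PASs listed as intronic and blue bars PASs of the last exon, with the distance in nt upstream of the most distal PAS. In Nupl1 the intronic share goes from 23.5% in NT to 43.4% in RC4, and in Nup50 the proximal share goes from 26.7% to 48.0%.

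Seh1l had 2 PASs listed as intronic on chromosome 18 and 1 in the last exon. The PAS nearer to the end took 25.5% of reads in NT (23.8% to 27.3%), 30.3% in AS, 37.2% in RC4 (35.1% to 39.3%) and 27.0% in RC8. The one further upstream took 7.80%, 8.86%, 6.68% and 13.5%, so the upstream site was highest in RC8 and the other in RC4. The last exon took 66.7%, 60.8%, 56.1% and 59.5%, lower than NT in every treated library. REDi with the nearer site was −0.38 ± 0.10 under AS, −0.79 ± 0.10 at RC4 and −0.25 ± 0.10 at RC8, and with the site further upstream it was −0.32 ± 0.16, −0.03 ± 0.17 and −0.96 ± 0.15. GENCODE places the nearer of the 2 in an exon, outside the coding sequence, rather than in an intron.

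Tpr had an upstream site that coincides with an annotated end, and its changes stayed below the call. Its upstream PAS at 152287445 on chromosome 1 is where the transcript Tpr-003 stops, with AATAAA 24 nt before it. It took 15.1% of reads in NT (14.0% to 16.2%), 17.8% in AS (16.4% to 19.3%), 19.8% at RC4 (18.5% to 21.2%) and 11.7% at RC8 (10.7% to 12.8%). Both AS and RC4 were above NT and RC8 was below, with REDi values of −0.28 ± 0.10, −0.47 ± 0.09 and 0.42 ± 0.10. The lower level of Tpr in AS was present at both ends, with log2 values of −0.39 at the upstream PAS and −0.67 at the last exon. The PAS of the last exon lies within 500 nt of Prg4 on the other strand.

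Nup160 had a redistribution among PASs of the last exon that lie close together. The PAS at 90576405 took 54.2% of NT reads and 49.6% in AS, 55.2% of NT reads and 36.3% in RC4, and 39.3% of NT reads and 11.4% in RC8, where a further PAS at 90576206 was listed (13% in NT, 26.1% in RC8). The PAS at 90576546 took 12.1% to 14.1% in NT, 16.1% under AS, 21.7% at RC4 and 30.6% at RC8. REDu was 0.54 ± 0.34, 1.45 ± 0.34 and 2.90 ± 0.36, from 288 to 347 reads per library and a pair of sites 141 nt apart. Between the PAS at 90576405 and the most distal one, it was 0.31 ± 0.31 under AS and 2.01 ± 0.38 at RC8. Between the site listed for RC8 alone, at 90576206, and the most distal one it was −0.78 ± 0.38, so the sign in RC8 depended on the pair.

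In 5 further members with several PASs, no site reached the call. Ndc1 took 27.3% of reads at its proximal PAS in NT, 31.4% under AS, 35.7% at RC4 and 29.9% at RC8, with REDu of −0.29 ± 0.07, −0.56 ± 0.07 and −0.18 ± 0.07. Ranbp2 kept 49.6% to 51.6% at its first PAS in all 4 libraries. Its lower level in AS was spread over its 3 sites, at −0.83, −0.78 and −0.83 in log2 estimated reads. Its last 2 sites lie 102 nt apart. The middle PAS took 21.4% in NT, 16.4% at RC4 and 17.4% at RC8, and the distal one took 27.3%, 34% and 31%. REDu between these sites was −0.04 ± 0.12 under AS, 0.70 ± 0.10 at RC4 and 0.48 ± 0.10 at RC8. Sec13, Nup153 and Nupl2 changed by at most 5.5, 2.6 and 3.7 percentage points at any PAS.

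Over the members, with the pair of largest change in each table, REDu had a median of −0.31 in AS (10 genes), 0.19 in RC4 (9) and 0.07 in RC8 (10), compared with −0.22, −0.36 and −0.14 for all genes. Nup50 and Ndc1 were thus among the 3 members below 0 in RC4, with Nup155 at −0.11 ± 0.22. In RC4 and RC8 the pairs of Nup160, Nupl1, Ranbp2 and Sec13 lay 102 to 141 nt apart. With the first and last listed PAS of the last exon instead, Nup160 went from 2.90 to −0.78 in RC8. The REDu of no other member changed sign in RC8 with that pair. Medians with other pairs are not given. REDi in RC4 was −1.84 in Nupl1, −0.79 in Seh1l and −0.47 in Tpr, and the median of all genes with a score was −0.40, with 64.7% of them below 0. The scores of Nup155, Nup160 and Nup35 given above rest on sites listed for RC4 alone and are not set against that median. With the intronic site of Nup35 that all 3 tables list, REDi was 0.31 ± 0.17 under AS, −0.31 ± 0.20 at RC4 and 0.77 ± 0.18 at RC8. Without Nup210l, PASs upstream of the last exon held 9.52% to 9.66% of member reads in NT, 9.64% in AS (9.37% to 9.91%), 13.4% at RC4 (13.1% to 13.8%), with the sites listed for RC4 alone included, and 9.51% at RC8 (9.26% to 9.78%). For all genes the shares were 8.09% to 8.19% in NT, 8.23%, 9.41% and 8.28%. The members' shares count all reads of Nup93 and Nup98, whose only PASs are listed as intronic but lie in exons by GENCODE. Nup93 alone had 2378 such reads in NT in the table of AS. In members with both kinds of PAS in a table, the upstream share was 21.6% in NT and 24.8% in AS (4 genes). It was 18.7% and 29.6% for RC4 (6 genes) and 21.6% and 22.5% for RC8 (4 genes). With Nup210l, whose reads are all listed at an intron, the members' shares were 41.5% to 41.6% in NT and 47.0%, 54.1% and 39.9% in the treated libraries.

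Listed types did not always match GENCODE. Of the 11 PASs of members listed as intronic, 7 lay in an intron of all annotated transcripts of the gene and 4 in an exon outside the coding sequence, those of Nup93, Nup98, Tpr and 1 of Seh1l. Of the PASs listed as last exon, 35 lay in an exon outside the coding sequence, 8 beyond the annotated end of the gene and 2, both of Nupl1, in an intron. The PAS of Nup93 was 3 nt past the end of the transcript Nup93-201. Nup98, whose gene also encodes the outer ring protein Nup96 at its far end, was listed only with a PAS in an exon of a short annotated transcript, far before the end of the gene, so the level of Nup98 given above is that of a short form.

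Nup210l had its only listed PAS in an intron at 89931038 on chromosome 3 (plus strand). Of the 300 nt before it, 287 nt aligned with 99% identity to a transcript of Eef1b2, a translation elongation factor gene on chromosome 1. The window before the site ended in a run of 14 A in the genome itself, a property of 1.84% of the 21565 PASs. The window of Nup210l and that of the single PAS of Eef1b2 (63226257 on chromosome 1, plus strand) differ from each other. The identity of these reads turns on the 287 nt that align, not on a likeness of these windows.

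Nup210l: taaaagcttgaaaGATAAAaaaaaaaaaaa
Eef1b2: taacccttggctcttcattttgctgtgaaa

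Nup210l had 1214 RPM in NT, 1417 under AS, 1376 at RC4 and 1075 at RC8, and Eef1b2 had 2371, 2476, 2498 and 1983. Relative to the median gene, Nup210l was at 0.27, 0.49 and −0.18 and Eef1b2 at 0.11, 0.38 and −0.26. Both were above the median gene in AS and RC4 and below it in RC8. Reads of the 2 places may have been shared, so the values of Nup210l are uncertain as a measure of that gene. Of the 56 PASs of members searched, 44 had no further match in the genome. Nup54, whose 60 reads in NT and 59 in RC4 give a log2 value of 0.26 (−0.26 to 0.78), has a copy of 99% identity over 298 nt, and the distal PAS of Nup153 one of 99.6% over 264 nt. Nupl2, called higher in RC8, has a copy of 99.1% identity over 220 nt before its proximal PAS. That PAS took 52.9% of its reads in NT, and what the copy does to its level was not tested. The ends of Nup214 and Pom121 overlap Fam78a and Nsun5 on the other strand. The 300 nt before the last-exon PAS of Tpr match a transcript of 1 other coding gene at 100%. They had no further match in the genome, so no copy at another place was found for that end. Within 500 nt of the PASs of Nup85, Nup43, Nup133, Nup88 and Aaas lie Gga3, Pcmt1, Gm20388, Rabep1 and Myg1, on the other strand. Il4i1 lies within 500 nt of the PASs of Nup62 on the same strand. PASs are listed with their strand, and how the counting of genes used it is not given in the sources used here.

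Genes that work with the pore were described from separate lists. Of 29 nuclear transport factors with values (importins, exportins and the Ran system), 0 were higher and 2 lower in AS (2.08% and 10.2% of all genes), 4 higher and 3 lower in RC4 (15.2% and 17.2%), and 1 higher and 3 lower in RC8 (11.3% and 12%), with medians of −0.12, −0.15 and −0.21. The extremes were Ranbp3, a cofactor of Xpo1, at 0.32 and Xpo4, an exportin, at −0.90 in AS. In RC4 they were Xpot, the tRNA exportin, at 0.92 and Ranbp3 at −1.01, and in RC8 Kpna1, an importin alpha, at 0.65 and Cse1l, the exportin of importin alpha, at −0.71.

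Of 20 mRNA export factors with values, 0 were higher and 1 lower in AS (all genes 2.08% and 10.2%), 0 higher and 3 lower in RC4 (15.2% and 17.2%), and 3 higher and 1 lower in RC8 (11.3% and 12%), with medians of 0.13, 0.01 and 0.08. Zc3h11a, a zinc finger protein bound to the TREX export complex, was lowest in AS at −1.23 and Nxt1, the partner of the export receptor Nxf1, highest at 0.41. Mcm3ap, the scaffold of the TREX-2 complex that docks at the basket, was lowest in RC4 at −1.08 and the helicase Ddx39 highest at 0.38. Thoc5 of the THO complex was highest in RC8 at 0.87 and the adaptor Alyref lowest at −0.68.

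On the list of nuclear envelope, lamina and associated genes, 19 had values in AS and 20 in RC4 and RC8. The medians were −0.13, −0.27 and −0.10. Here 0 were higher and 4 lower in AS (all genes 2.08% and 10.2%), 1 higher and 7 lower in RC4 (15.2% and 17.2%), and 0 higher and 4 lower in RC8 (11.3% and 12%). Besides envelope and lamina genes, the list held Ahctf1, Mad1l1, Mad2l1, Senp1 and Senp2, and these counts include them. Ahctf1 encodes the nucleoporin ELYS, which the symbol rule for the members did not cover. Ahctf1 was among the genes called lower in AS and RC4, and Mad2l1 among those called lower in RC4 and RC8. Syne1, a giant protein that links the nucleus to the cytoskeleton, was lowest in AS at −1.02 and highest in RC4 at 1.01. Lmnb2, a B-type lamin, was lowest in RC4 at −1.71, with 70.8 RPM in NT, 55.2 under AS, 17.5 at RC4 and 55.6 at RC8. Its RC4 library was the lowest, as it was for Nup107. Unlike Nup107, Lmnb2 was not called lower in RC8, at −0.35. Emd (emerin) was highest in AS at 0.22, and in RC8 Lemd2 was highest at 0.20 and Sun2, a partner of Syne proteins, lowest at −0.76.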

How the data were processed

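QuantSeq FWD libraries of NIH3T3 cells in NT, AS, RC4 and RC8 were used, 1 each. The QuantSeq REV libraries were not analysed here. The authors trimmed reads with bbmap, mapped them to mm9 with STAR (version 2.5.2a per the submitters' processing notes) and ran MAAPER with PolyA_DB v3 on genes with at least 50 reads. Their mapping settings kept reads with more than 1 place in the genome, up to a set limit of places. How such reads were counted is not stated. They deposited raw read counts of each gene, 2 columns to a library, and for each PAS the fraction of the gene's reads, in 1 pair of tables per treated condition and NT. The columns are named by condition number. They were matched to the samples on the reading that the first condition is NT, since the methods score the second condition against the first and compare each treated library with NT, and that the second is the condition the table is named for. What sets apart the 2 count columns of a library is not given in the sources used here. The deposited P values and the RLD and RED scores are comparisons of the authors and were not used.

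The 2 count columns were added. Log2 ratios were taken over the NT counts of the same table and centred on the median of the genes in all 3 tables, without a pseudocount, since the lowest count was 50. Calls were made at 1.5-fold and at 10 percentage points. Counting errors were the root of the summed inverse read numbers on the log2 scale, and shares have 95% Wilson intervals. The reads carry no molecular identifiers, so they are not independent molecules. Depth on genes was 22.4 M to 23.0 M. REDu and REDi were computed from the fractions, for the pair of PASs with the largest change in each table. Estimated reads are the count times the fraction. Copies were searched with blastn 2.17.0 in the 300 nt before each PAS (at least 95% identity over 100 nt) in the NCBIM37 genome and GENCODE vM1 transcripts. Python 3.11.15 with pandas 2.3.3 was used, and the computation of ratios was tested on simulated data.

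Values in each library are given for the 3 highest and the 3 lowest members of each comparison, for each member past 1.5-fold, for each member with at least 200 reads and a PAS changed by 10 percentage points, and the highest and lowest member of each further list are named with their log2 change. The members, lists and rules were chosen with earlier results of these data known. Nup210 and Nup62cl were not listed, nor were Kpna2, Thoc4, Bat1a, Hspa1a and Atf3, and Tmem48 was listed as Ndc1. A comparison by FG repeats was planned and not run, because no protein sequences were used here. Other scales, read minimums, folds and PAS pairs were tried.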

Additional observations from a re-analysis of the deposited data

Results flagged for a closer look

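In 3 members with a call, the counting intervals of 2 comparisons lay on opposite sides of 0, and these differences were not tested, since each condition had 1 library. Nup43 was at 0.21 under AS, −1.07 at RC4 and 0.19 at RC8 (log2 relative to the median gene). Ranbp2 was at −0.81 under AS, 0.46 at RC4 and 0.14 at RC8. Pom121 was at −0.18 under AS, −0.64 at RC4 and 0.47 at RC8. The NT library is the same in all 3 comparisons.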

How the results depend on the processing

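Each condition had 1 library, so there was no replicate to leave out, and differences between cultures were not measured. No paired analysis was possible because each group has 1 sample and no test was made. Depth limits Nup54 and Nupl2 (60 and 112 reads in NT) most.

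No call changed its sign under the alternatives run. For AS, the number of members lower than NT was 1 (Ranbp2, without Tpr) when scaled to the upper quartile and 0 at 2-fold. At 2-fold it was 3 for RC4 and 1 for RC8, and the number higher in RC8 was 0. That last number was also 0 among genes with at least 200 reads and with the first count column alone, and 2 with the second, where Nup214 joined Nupl2. In RC4, 12 members were lower relative to total reads and 9 relative to the upper quartile. Members with a changed PAS numbered 5 under AS, 8 at RC4 and 5 at RC8 at 5 percentage points, and 0, 1 and 1 at 20. For the counts in this paragraph the shares of all genes at the same settings are not given, so no background stands beside them.

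The share of member reads upstream of the last exon depended on Nup210l. As the mean of the shares per gene it was 13.9% in NT and 14.1% in AS, 14.4% in NT and 17.0% in RC4, and 13.9% in NT and 14.2% in RC8. Leaving out Nup210l, grouping by transcript length and using 1 pair of PASs in each table were alternatives chosen after seeing the data. Without Nup210l the share was 9.52% and 9.64%, 9.66% and 13.4%, and 9.53% and 9.51%. The cause was not tested.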
